A study of Mus musculus with 6 samples.

Results

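The genes described are 38 interferon-stimulated genes, chosen by name as genes that type I interferon is known to induce, and found in the deposited count table by matching each identifier to its symbol in GENCODE M21. All 38 were present among the 55487 genes of the table. The libraries are RNA-seq profiles of lung neutrophils of mice, taken after perfusion and liberase digestion and sorted as Ly6G-positive cells. Both groups carried loxP-flanked Tgfbr2 alleles (TGFbR2-fl/fl), Tgfbr2 being the type II receptor for TGF-beta. In the 3 mutant libraries Cre recombinase was also present, driven by the S100A8 (Mrp8) promoter from a transgene that also carries EGFP, while the floxed alleles are Tgfbr2tm1Karl. The 3 wt libraries came from littermates without Cre, so the transgene itself differs between the groups as well as the deletion it is meant to cause. The S100A8 promoter acts in neutrophils and their precursors. No age, sex or treatment is given for the mice. The comparison asks whether lung neutrophils in which Tgfbr2 is targeted carry a different interferon signature.

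Type I interferons, the interferon-alpha family and interferon-beta, bind a receptor made of Ifnar1 and Ifnar2. The kinases Jak1 and Tyk2 then phosphorylate STAT proteins, which join Irf9 into a complex that binds the interferon-stimulated response element (ISRE) in the promoters of target genes. The induced proteins detect viral nucleic acid, block viral entry, translation and replication, and in part feed back on the pathway. Neutrophils express many of these genes without infection, and a subset of neutrophils rich in them is known from blood and tissues.

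Of the 38 genes, 27 had an entry in RefSeq's promoter table for GRCm38.p6, and the 250 bases before each start site were searched. The core of the ISRE, taken as GAAA, any 2 bases and GAAA again on either strand, was held by 10 of the 27, or 37.0%, against 3.46% of all 27025 genes in the table. The longer form, the same core followed at once by CT and so a subset of it, was held by 5 of the 27 against 0.255% of all genes. The element known for interferon-gamma signalling, TTCNNNGAA, which reads the same on both strands, was held by 4 of the 27 (14.8%) against 8.13% of all genes. A match describes the letters only, and its absence says only that those letters are not in this window.

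The windows shown are those of 3 IFIT genes, whose levels varied together from library to library, of the 3 IFITM genes, and of Rsad2 and Slfn2. Ifitm1, Rsad2 and Slfn2 were the 3 genes with an unadjusted p under 0.05 between the groups. They are given from 5′ to 3′ in the direction of the gene, in lower case with matches to the ISRE core in capitals. Where a window ran into an exon of the deposited gene models, those bases were left out, at the end of the window for Ifit1, Ifitm1, Ifitm2 and Ifitm3, and at the beginning for Ifit1, where it meets the neighbour Ifit1bl2.
Ifit1 (chr19:34640744-34640870, plus strand): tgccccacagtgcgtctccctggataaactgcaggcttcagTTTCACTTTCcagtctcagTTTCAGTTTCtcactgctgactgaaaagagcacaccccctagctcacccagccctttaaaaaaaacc
Ifit3 (chr19:34583279-34583528, plus strand): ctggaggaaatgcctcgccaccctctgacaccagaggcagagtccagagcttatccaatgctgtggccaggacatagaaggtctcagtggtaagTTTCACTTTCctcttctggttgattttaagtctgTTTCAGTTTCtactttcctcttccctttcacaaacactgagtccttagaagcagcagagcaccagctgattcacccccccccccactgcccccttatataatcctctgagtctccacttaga
Ifit3b (chr19:34607707-34607956, plus strand): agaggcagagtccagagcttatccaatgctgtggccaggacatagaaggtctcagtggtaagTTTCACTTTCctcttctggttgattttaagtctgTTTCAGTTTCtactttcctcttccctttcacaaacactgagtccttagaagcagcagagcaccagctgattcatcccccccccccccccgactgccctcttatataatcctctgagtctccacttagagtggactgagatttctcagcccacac
Ifitm1 (chr7:140967826-140968027, plus strand): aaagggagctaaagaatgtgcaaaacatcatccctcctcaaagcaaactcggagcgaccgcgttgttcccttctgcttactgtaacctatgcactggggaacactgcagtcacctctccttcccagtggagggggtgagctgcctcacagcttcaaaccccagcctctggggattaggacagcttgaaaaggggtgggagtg
Ifitm2 (chr7:140955988-140956211, minus strand): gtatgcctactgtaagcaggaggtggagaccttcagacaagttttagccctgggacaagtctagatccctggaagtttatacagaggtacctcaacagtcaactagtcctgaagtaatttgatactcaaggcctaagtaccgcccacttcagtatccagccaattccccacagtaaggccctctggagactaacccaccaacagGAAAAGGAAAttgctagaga
Ifitm3 (chr7:141010771-141010994, minus strand): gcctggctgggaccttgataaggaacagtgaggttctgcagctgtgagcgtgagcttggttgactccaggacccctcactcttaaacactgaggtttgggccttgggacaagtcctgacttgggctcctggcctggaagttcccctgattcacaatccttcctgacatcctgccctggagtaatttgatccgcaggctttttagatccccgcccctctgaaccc
Rsad2 (chr12:26456453-26456702, minus strand): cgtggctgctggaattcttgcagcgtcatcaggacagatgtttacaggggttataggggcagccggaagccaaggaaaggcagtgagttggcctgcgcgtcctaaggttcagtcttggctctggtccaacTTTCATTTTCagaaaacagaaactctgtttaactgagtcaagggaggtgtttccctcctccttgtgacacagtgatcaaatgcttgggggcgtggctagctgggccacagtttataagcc
Slfn2 (chr11:83064862-83065111, plus strand): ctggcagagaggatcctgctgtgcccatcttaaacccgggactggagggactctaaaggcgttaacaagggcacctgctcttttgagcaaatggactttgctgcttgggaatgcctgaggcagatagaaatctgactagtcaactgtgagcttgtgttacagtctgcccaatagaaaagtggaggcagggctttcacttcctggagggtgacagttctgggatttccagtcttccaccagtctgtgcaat

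In Ifit1 the 2 matches began 104 and 85 bases before the start site, in Ifit3 156 and 122 bases and in Ifit3b 188 and 154 bases. The windows of Ifit3 and Ifit3b, which belong to the same cluster on chromosome 19, shared an identical run of 169 bases that holds both matches. Ifitm2 had 1 match, 46 bases before its start, and Rsad2 had 1, 120 bases before its start. Ifitm1, Ifitm3 and Slfn2 held none in this window. The window of Ifitm1 lies inside its deposited gene model, which begins at 140967221, and so precedes an internal start site. The bases before the outermost start of Ifitm1 were not searched. The 10 genes with a match had a median log2 fold change of 0.10 between mutant and wt, with 4 of them below 0. The 17 without had a median of -0.07, with 12 below 0. This split was not tested. The 10 include both Ifit3 and Ifit3b, and Ifi205, which rested on 193 counts over the 6 libraries. The 17 include Ifitm1.

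The genes lay in 25 places of the genome, and 7 of these held more than 1 of them. Ifit2, Ifit3, Ifit3b and Ifit1 lie on chromosome 19 between 34550694 and 34650009 (GRCm38). Slfn5, Slfn2, Slfn1 and Slfn4 lie on chromosome 11 between 82951349 and 83190216, and Ifitm2, Ifitm1 and Ifitm3 on chromosome 7 between 140954837 and 141010770. The remaining groups were Parp14, Dtx3l and Parp9 on chromosome 16, Rsad2 and Cmpk2 on chromosome 12, Mx1 and Mx2 on chromosome 16, and Ifi204 and Ifi205 on chromosome 1.

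Library totals ran from 30403494 to 35906780 counts, and 15774 genes passed the filter on low counts, all 38 interferon-stimulated genes among them. Levels are given as CPM, counts scaled to library size with TMM factors, and a gene at 3 counts stood at 0.0829 to 0.102 CPM, which covers counting error only. The neutrophil genes Csf3r (7689 to 9233 CPM over the 6 libraries) and Mmp9 (3755 to 7261 CPM) were abundant, and Ly6g, whose protein was used for the sort, was at 14.4 to 35.2 CPM. Of 10 neutrophil markers, 9 had a negative log2 fold change and Mmp9 a positive one, with sums of 26805 to 35931 CPM in mutants and 32273 to 34283 CPM in wt. The chemokine receptor Cxcr2 was lower in every mutant library (1946 to 2136 CPM, against 2475 to 2623 CPM in wt), with an adjusted p of 0.294 by edgeR and 0.016 by DESeq2. Markers of other lung cells were present as well. The summed level of 8 alveolar type 2 cell markers was 634 to 1054 CPM in mutants and 333 to 620 CPM in wt, that of 10 alveolar macrophage markers 632 to 1285 and 357 to 576 CPM, and that of 8 fibroblast markers 624 to 1114 and 527 to 610 CPM, so that in each of these lists every mutant library lay above every wt library. Their log2 fold changes were positive in 7 of 8, 10 of 10 and 8 of 8 markers, and none of these markers was at 0 in all libraries. Much of the alveolar macrophage sum was Chil3, at 372 to 999.6 CPM in mutants and 162 to 319 CPM in wt. Chil3, Krt79 and Plet1 did not overlap between the groups, while Marco, Mrc1, Car4, Siglecf, Ear2, Ear1 and Fabp4 did. Of the alveolar type 2 cell markers, all but Sftpc and Napsa lay higher in mutants without overlap. So did the fibroblast markers except Inmt, Col1a2 and Mfap4. Over all tested genes 6.82% did so. The adjusted p of Slc34a2, Sftpb and Col1a1 was 8.4e-05, 0.0022 and 0.049 by DESeq2, and 0.263, 0.294 and 0.428 by edgeR. The sum without Chil3 was not tested. Other lists went the opposite way, with overlapping sums. Endothelial markers summed to 1279 to 1542 CPM in mutants and 1407 to 1780 CPM in wt (0 of 8 positive), those of conventional dendritic cells to 230 to 323 and 297 to 354 CPM (1 of 8 tested positive) and those of NK cells to 18.6 to 30.7 and 24.97 to 38.7 CPM (1 of 7 tested positive). Markers of plasmacytoid dendritic cells, which can make large amounts of type I interferon, summed to 60.7 to 76.0 CPM in mutants and 53.3 to 62.6 CPM in wt, most of it Tcf4, and their defining gene Siglech was at 0 to 1.05 CPM. The remaining lists also had overlapping sums. Monocyte markers, mostly Nr4a1, summed to 6504 to 7044 CPM in mutants and 4855 to 6703 CPM in wt (5 of 10 positive). Those of B and plasma cells summed to 447 to 467 and 291 to 486 CPM (5 of 7 tested positive). T cell markers summed to 17.1 to 24.7 and 11.7 to 29.6 CPM (3 of 8 positive). Erythroid and platelet markers summed to 8.83 to 16.1 and 8.29 to 11.9 CPM (5 of 6 tested positive). What part these other cells have in the values below was not tested. In such bulk samples fewer cells of a type and less RNA per cell cannot be told apart. Tgfbr2 itself, counted over all its exons, stood at 187 ± 15.4 CPM in the mutant group against 191 ± 8.74 CPM in the wt group (mean ± SD, n = 3 per group). Such a sum does not check the deletion.

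Levels between genes were compared per kilobase of exon. The highest were Slfn4 at 787 CPM per kilobase, Slfn2 at 578, Ifitm2 at 265, Ly6e at 230 and Slfn1 at 221, each a mean over the 6 libraries. Ifitm3, Ifitm1, Ifit3 and Samhd1 followed at 204, 204, 199 and 196 CPM per kilobase, levels that lie within the range of single libraries of one another. The lowest were Ifi205 at 0.230, Mx1 at 0.236, Mx2 at 0.392 and Ifi44 at 0.997 CPM per kilobase. The median of the 38 genes was 37.9 CPM per kilobase, against 1.89 over all tested genes. Ifi205, Mx1 and Mx2 rested on 193, 171 and 276 counts over the 6 libraries.

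**Figure D1:**
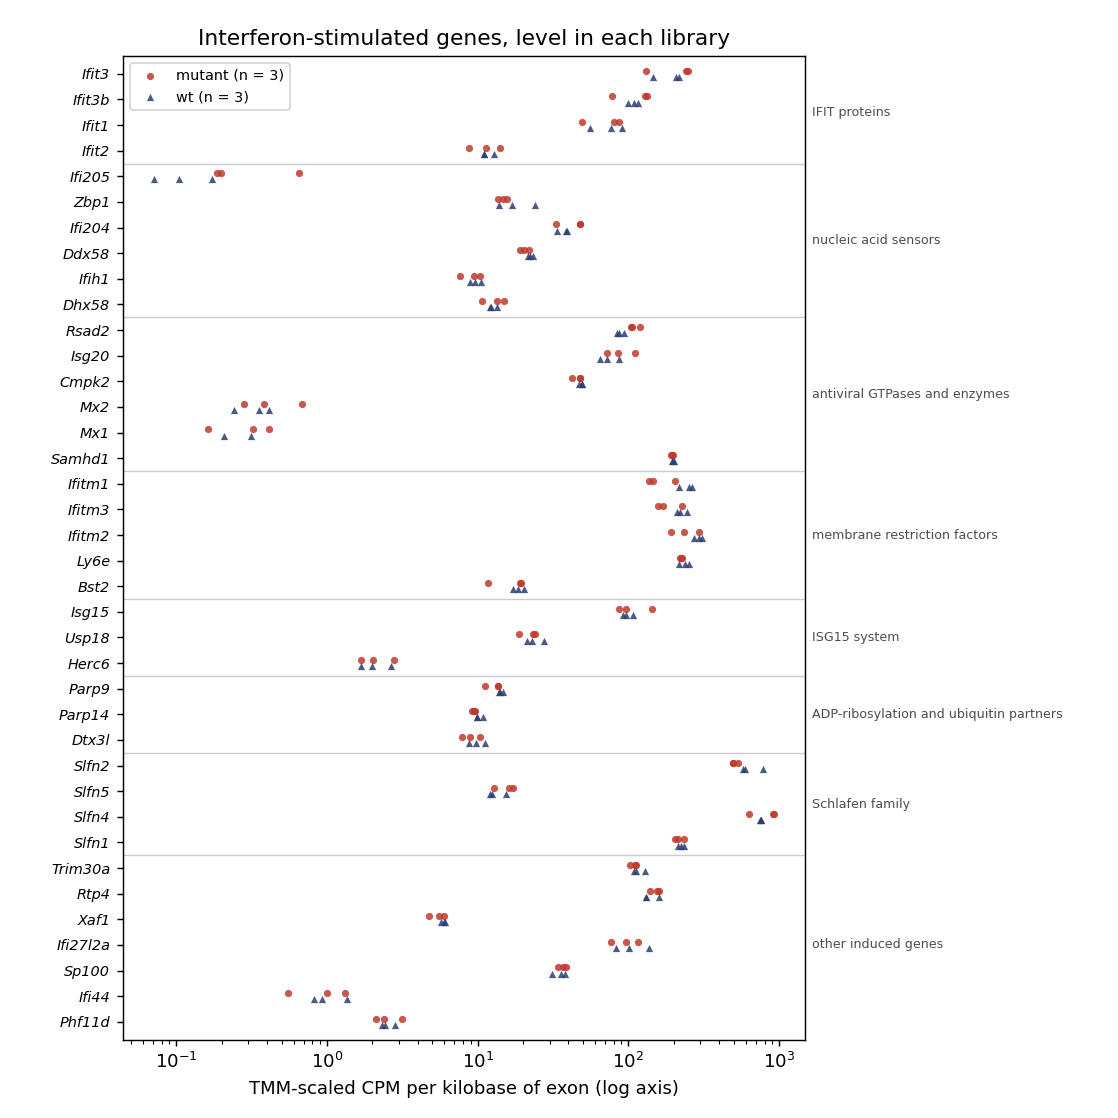
Level of each of the 38 genes in each library, in TMM-scaled CPM per kilobase of exon on a log axis, with mutant libraries as red circles and wt libraries as blue triangles (3 each). Genes are grouped by role, the groups overlap for most genes, and Mx1 in wt replicate 2, at 0, is not drawn.

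Between mutant and wt, none of the 38 genes had an adjusted p under 0.05 when tested with edgeR (quasi-likelihood), where the share of all tested genes that passed was 0.00634%. At an unadjusted p under 0.05, 1 of the 38 was higher in mutants (Rsad2; 3.51% of all tested genes were higher by this measure) and 2 were lower (Ifitm1 and Slfn2; 3.22% of all). By DESeq2's Wald test 1 of the 38 was lower at an adjusted p under 0.05, Ifitm1 (0.469% of all tested genes were lower), and 0 were higher (0.514% of all), while limma-voom called 0. The log2 fold change of mutant over wt was positive for 16 and negative for 22 of the genes (49.3% of all tested genes were negative). Its median was -0.04, against 0.01 over all tested genes. The 3 mutant libraries lay entirely below the 3 wt libraries for 4 genes (Ifitm1, Slfn2, Parp9 and Parp14; 6.21% of all tested genes) and entirely above for 2 (Rsad2 and Ifi205; 6.82% of all). For 35 of the 38 genes the 95% interval of the fold change, not adjusted for the number of genes, lay within a 2-fold change in either direction. The exceptions were the lowly expressed Ifi205, Mx1 and Mx2. For 25 genes it lay within 1.5-fold. Of all 15774 tested genes, which are mostly lower in level, 7881 lay within 2-fold and 4080 within 1.5-fold.

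**Figure D2:**
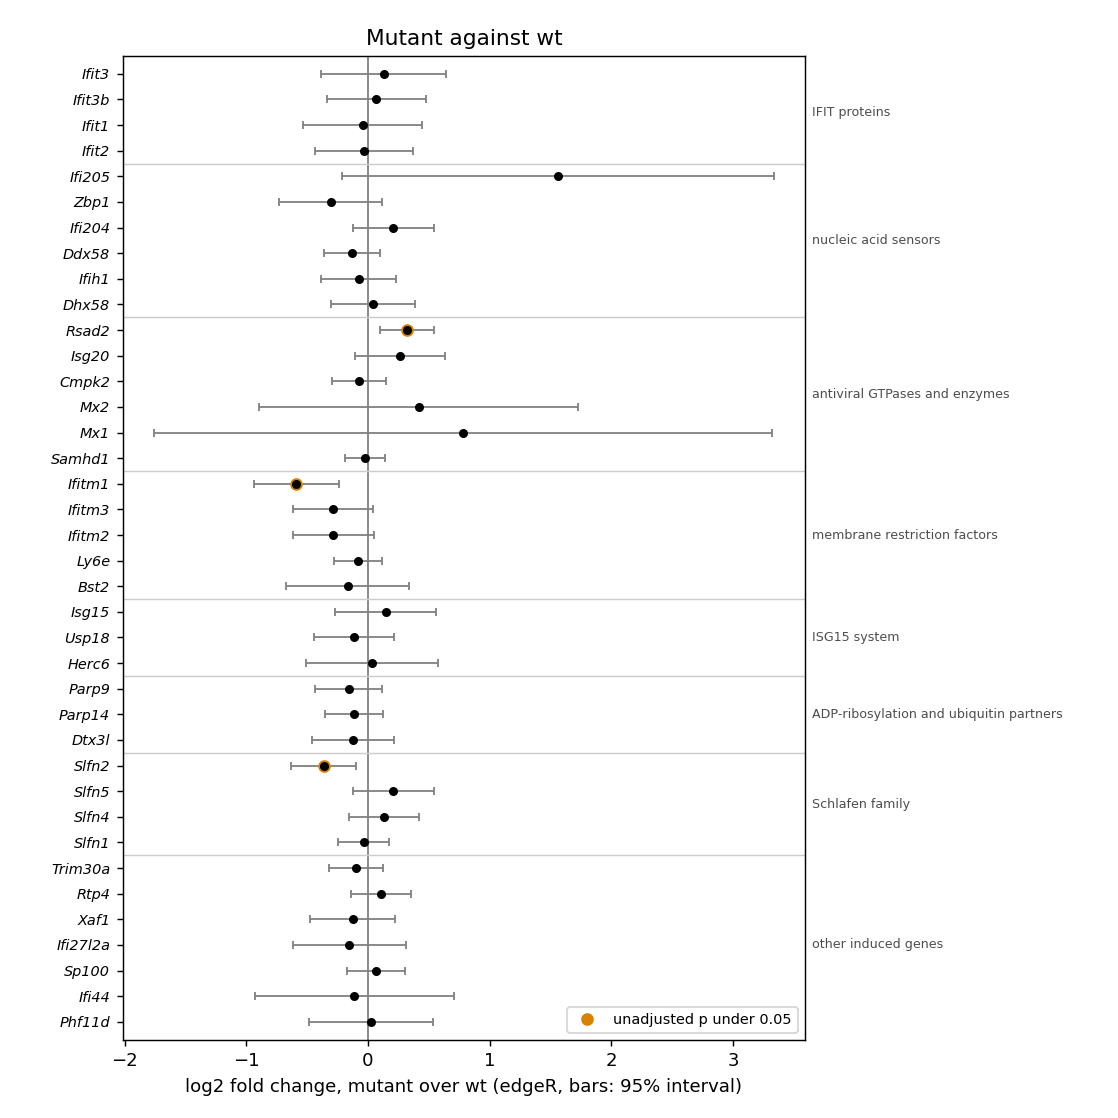
Log2 fold change of mutant over wt for the 38 genes (edgeR), with bars for the 95% interval and orange rings for the 3 genes with an unadjusted p under 0.05. Most intervals include 0, and those of Ifi205, Mx1 and Mx2 are the widest.

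The membrane proteins that block viral entry and release had log2 fold changes below 0 in 5 of 5 genes, with a median of -0.29, although none passed by edgeR. Over all tested genes 49.3% were below 0, and this role group was drawn up with earlier results of these data known. Ifitm1, Ifitm2 and Ifitm3 encode small membrane proteins that hinder the fusion of viruses with host membranes. Ifitm1 (ENSMUSG00000025491.14) was at 160, 224 and 150 CPM in mutant replicates 1 to 3 and at 288, 277 and 238 CPM in wt replicates 1 to 3. Every mutant library lay below every wt library, with mutant replicate 2 nearest to wt. The log2 fold change was -0.59 ± 0.16 (SE), with a 95% interval of -0.94 to -0.24, an unadjusted p of 0.0036 and an adjusted p of 0.382 by edgeR, and the adjusted p was 0.028 by DESeq2. The fold change stayed between -0.79 and -0.48 when each library was left out, with adjusted p of 0.235 to 0.763 by edgeR.

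Ifitm2 was at 125, 191 and 153 CPM in mutants and at 177, 202 and 193 CPM in wt. Ifitm3 was at 106, 153 and 115 CPM in mutants and at 148, 142 and 166 CPM in wt. For both genes mutant replicates 1 and 3 lay below all wt libraries and mutant replicate 2 lay among them, with a log2 fold change of -0.29 ± 0.15 (SE) in each (adjusted p = 0.799 and 0.798, edgeR). Without mutant replicate 2 the values were -0.46 for Ifitm2 and -0.47 for Ifitm3. The neutrophil gene S100a8 had the same order of mutant libraries, at 966, 1507 and 973 CPM in mutants and 1687, 1752 and 1688 CPM in wt. Its groups did not overlap, with a log2 fold change of -0.57 and an adjusted p of 0.405 by edgeR and 0.034 by DESeq2. S100a9 was at 637, 1211 and 696 CPM in mutants and at 1090, 1156 and 1230 CPM in wt. What part this has in the IFITM values was not tested. Of the 100-base stretches in Ifitm2 transcripts, 34.9% also occur in transcripts of other annotated genes, chiefly Gm45717, while Ifitm1 and Ifitm3 shared none. Gm45717 overlaps Ifitm2 itself, sharing 268 exon bases on the same strand, or 40.9% of the exon bases of Ifitm2. It was at 0 CPM. How reads over the shared bases were assigned is not known, so the level of Ifitm2 per kilobase is uncertain.

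Ly6e, a lipid-anchored surface protein that also restricts the entry of some viruses, was at 859, 845 and 836 CPM in mutants and at 960, 904 and 822 CPM in wt, with wt replicate 3 below all mutants. Bst2 (tetherin), which holds budding virus at the cell surface, was lower in level, at 10.6, 17.1 and 17.4 CPM in mutants and 15.5, 16.7 and 18.3 CPM in wt. Only mutant replicate 1 stood apart for this gene, and the log2 fold change of -0.17 ± 0.23 (SE) turned to 0.03 without it.

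**Figure D3:**
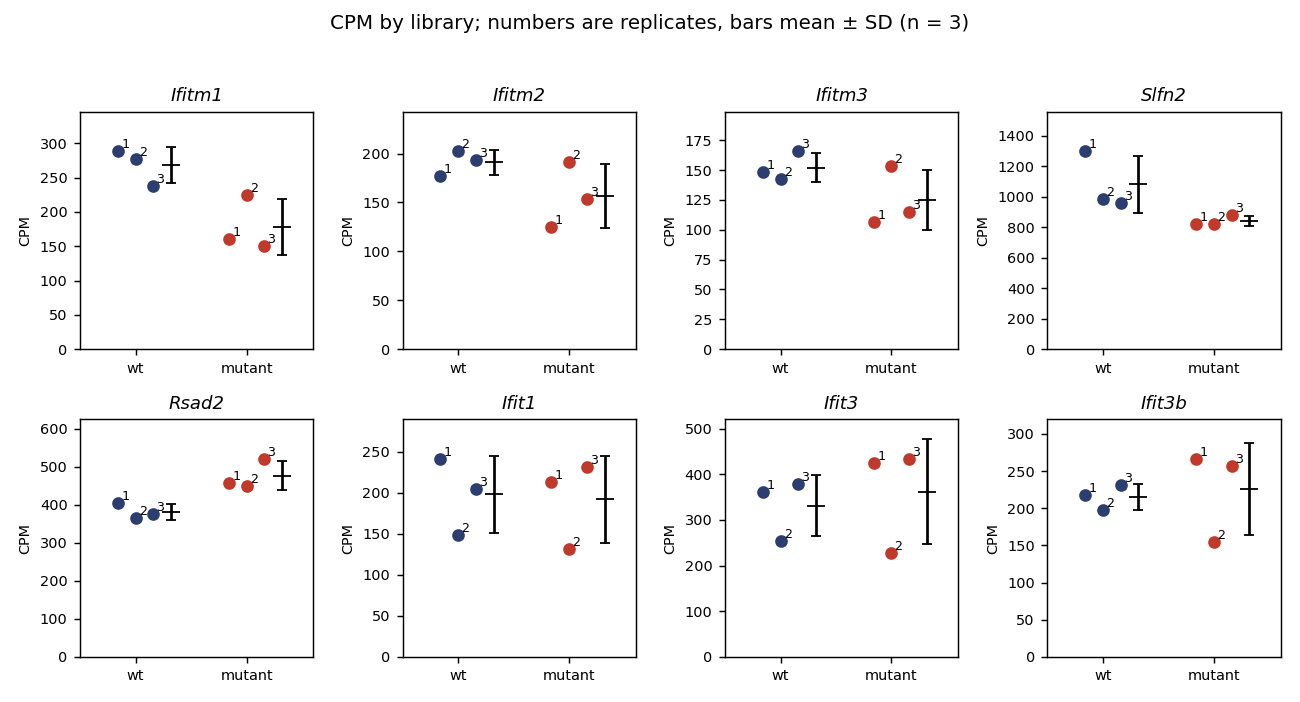
CPM in each library for 8 genes, with replicate numbers beside the points and bars for mean ± SD (n = 3 per group) on linear axes that start at 0. The groups do not overlap for Ifitm1, Slfn2 and Rsad2, and mutant replicate 2 is the lowest library for the 3 IFIT genes and the highest mutant library for the 3 IFITM genes.

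The Schlafen genes encode regulators of immune cell growth and of RNA, and 2 of the 4 were positive and 2 negative. Slfn2, which is known to keep lymphocytes and monocytes quiescent, was at 823, 819 and 882 CPM in mutants and at 1299, 988 and 962 CPM in wt. The mutant libraries lay close together below all wt libraries, and wt replicate 1 stood well above the rest. Its log2 fold change was -0.36 ± 0.12 (SE), with an unadjusted p of 0.012 and an adjusted p of 0.541 by edgeR, and it was -0.21 without wt replicate 1. Slfn4, a myeloid member and the highest of the 38 genes per kilobase, was at 3664, 2519 and 3611 CPM in mutants and at 2992, 2955 and 2985 CPM in wt. The wt libraries were nearly equal and the mutants lay on both sides of them, which gave a log2 fold change of 0.13 ± 0.13 (SE). Slfn5 was at 102, 80.8 and 109 CPM in mutants and 97.6, 76.2 and 78.5 CPM in wt, and Slfn1 at 383 to 435 and 397 to 435 CPM. Both overlapped between the groups.

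Among the antiviral GTPases and enzymes, Rsad2 was the gene with non-overlapping groups. Rsad2 encodes viperin, a radical SAM enzyme that makes a chain-terminating nucleotide from CTP. It was at 458, 450 and 520 CPM in mutants and at 405, 365 and 375 CPM in wt, a 1.25-fold ratio of means. The log2 fold change was 0.32 ± 0.10 (SE), with a 95% interval of 0.10 to 0.54, an unadjusted p of 0.0086 and an adjusted p of 0.498 by edgeR (0.153 by DESeq2). Leaving out each library kept it between 0.25 and 0.37. Cmpk2, a nucleotide kinase whose gene lies head to head with Rsad2 on chromosome 12, did not share this difference in direction, at 177, 200 and 197 CPM in mutants and 204, 194 and 205 CPM in wt.

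Samhd1, which degrades deoxynucleotides and so starves retroviruses, varied least among the 38 genes relative to its level. Its values were 1771, 1809 and 1752 CPM in mutants and 1786, 1811 and 1834 CPM in wt, a log2 fold change of -0.03 with a 95% interval of -0.19 to 0.14. Isg20, a 3′ exonuclease that digests viral RNA, was at 135, 205 and 159 CPM in mutants and at 134, 161 and 120 CPM in wt, with overlap. The GTPases Mx1 and Mx2, which trap viral nucleoproteins, were low, Mx1 at 1.22, 1.56 and 0.615 CPM in mutants and at most 1.182 CPM in wt, Mx2 at 1.02 to 2.46 and 0.875 to 1.49 CPM. Both genes are known to be defective in most laboratory strains of mice, and the groups overlapped for each.

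The IFIT proteins bind viral RNA that lacks the marks of host messenger RNA and block its translation. Their levels differed more among libraries of 1 group than between the groups. Ifit3 was at 424, 229 and 433 CPM in mutants and at 360, 254 and 379 CPM in wt. Ifit1 was at 213, 131 and 231 CPM in mutants and at 241, 148 and 205 CPM in wt. In both genes mutant replicate 2 was the lowest of the 6 libraries and wt replicate 2 the next lowest.

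Ifit3b was at 266, 155 and 257 CPM in mutants and at 217, 197 and 231 CPM in wt, and Ifit2 at 55.1, 34.1 and 44.4 CPM and at 43.2, 42.9 and 50.3 CPM. Mutant replicate 2 was again the lowest library for each. The log2 fold changes of the 4 genes ran from -0.04 to 0.13 with standard errors of 0.18 to 0.23. Without mutant replicate 2 they were 0.37 for Ifit3, 0.28 for Ifit3b, 0.16 for Ifit1 and 0.13 for Ifit2, none of them past the threshold. Ifit3 and Ifit3b are near copies, and 31.7% of the 100-base stretches of Ifit3 transcripts also occur in Ifit3b, so their separate values are uncertain.

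Sensors of foreign nucleic acid had 3 positive and 3 negative log2 fold changes. Ddx58 (RIG-I) and Ifih1 (MDA5) detect viral double-stranded RNA, and Dhx58 (LGP2) modulates both. Ddx58 was at 143, 134 and 154 CPM in mutants and at 157, 151 and 163 CPM in wt, Ifih1 at 62.6 to 84.4 and 73.1 to 85.9 CPM, and Dhx58 at 35.0 to 48.8 and 39.6 to 44.0 CPM. All 3 overlapped between the groups. Zbp1, which senses Z-form nucleic acid and can start necroptosis, was at 51.7, 48.3 and 55.2 CPM in mutants and at 84.2, 48.6 and 59.2 CPM in wt. Its lower mean in mutants (log2 fold change -0.31 ± 0.19, SE) came with a high value in wt replicate 1, and it was -0.06 without that library.

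Ifi204 and Ifi205 belong to the PYHIN family, some of whose members bind DNA. Ifi204 was at 171, 118 and 170 CPM in mutants and at 140, 137 and 121 CPM in wt, again with mutant replicate 2 lowest. Ifi205 had the largest fold change of the 38 genes and nearly the lowest level, at 2.71, 0.779 and 0.830 CPM in mutants and 0.723, 0.297 and 0.438 CPM in wt. The groups did not overlap, but the log2 fold change of 1.56 with a 95% interval of -0.21 to 3.34 (adjusted p = 0.798, edgeR) was 0.73 without mutant replicate 1. Reads of both genes can be shared with relatives, since 15.0% of the 100-base stretches of Ifi205 and 10.7% of those of Ifi204 occur in other genes such as Ifi211 and Mndal.

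The ISG15 system attaches a ubiquitin-like protein to other proteins. Isg15, the modifier itself, was at 67.6, 101 and 60.6 CPM in mutants and at 64.3, 67.5 and 75.7 CPM in wt. Here mutant replicate 2 was the highest of the 6 libraries, opposite to its place in the IFIT genes. Usp18, which removes ISG15 and blocks the receptor Ifnar2, was at 67.3, 52.5 and 65.1 CPM in mutants and at 77.0, 59.4 and 63.7 CPM in wt, and Herc6, the mouse ligase for ISG15, at 15.6 to 26.0 and 15.6 to 24.7 CPM. None of the 3 separated the groups.

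Parp9 and Dtx3l form a complex that joins ADP-ribosylation to ubiquitin, and Parp14 is a mono-ADP-ribosyltransferase beside them on chromosome 16. All 3 had small negative log2 fold changes, from -0.16 to -0.11. Parp9 was at 66.5, 54.8 and 66.1 CPM in mutants and at 68.0, 72.2 and 68.9 CPM in wt, and Parp14 at 85.4, 88.9 and 87.5 CPM and at 100.4, 91.5 and 91.6 CPM. In both genes the groups did not overlap, by margins of a few percent, with adjusted p of 0.917 and 0.939 by edgeR. Dtx3l, at 45.3 to 59.3 and 49.9 to 64.4 CPM, overlapped. Parp9 and Dtx3l share 458 exon bases on opposite strands, and because SMART-Seq libraries carry no strand information, reads there cannot be told apart.

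The remaining 7 genes had log2 fold changes from -0.15 to 0.11, and their groups overlapped. Rtp4, a chaperone for receptors that also binds viral replication complexes, was at 328, 298 and 341 CPM in mutants and at 339, 280 and 278 CPM in wt. Trim30a, a tripartite-motif protein that restrains NF-kB signalling, was at 455, 464 and 423 CPM in mutants and at 529, 446 and 465 CPM in wt. Sp100, a nuclear body protein, ranged from 237 to 292 CPM over all 6 libraries. Lower were Ifi27l2a (35.7 to 63.4 CPM), Xaf1 (22.4 to 28.6 CPM), a partner of the apoptosis inhibitor XIAP, Phf11d (9.55 to 14.2 CPM) and Ifi44 (3.39 to 8.38 CPM).

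Single libraries stood out in these genes. Mutant replicate 2 was the lowest of the 6 libraries for 17 of the 38 genes (44.7%), against 17.8% of all tested genes, and the highest for 3. Wt replicate 1 was the highest for 11 (28.9%), against 16.7% of all tested genes, and the lowest for 0. When each gene's log2 CPM was set against its mean over the 6 libraries, the median deviation of the 38 genes was -0.11 in mutant replicate 2 and -0.05 in wt replicate 2, and 0.04 to 0.06 in the other 4 libraries. Over all tested genes it was 0.02 to 0.03 in every library. For the 4 IFIT genes the median deviation in mutant replicate 2 was -0.51, whereas for the membrane proteins the low libraries were mutant replicate 1 (-0.43) and mutant replicate 3 (-0.16).

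The spread on the log2 scale was larger among the wt libraries than among the mutants for only 9 of the 38 genes (23.7%), against 49.7% of all tested genes. The median SD of log2 CPM was 0.26 in mutants and 0.13 in wt for these genes, and 0.325 and 0.321 over all tested genes. Tested genes are mostly lower in level, with a median of 6.93 CPM against 115 CPM for the 38. Among genes averaging at least 10 CPM, the median SD was 0.22 in mutants and 0.12 in wt for 34 of the 38. Over all tested genes at that level it was 0.18 and 0.17. The wt spread was the larger for 23.5% of those 34 genes and 47.1% of the tested genes. Mutant replicate 2 also had the highest Mmp9 level (7261 CPM, against 3755 to 4634 in the other libraries). Its summed neutrophil markers, 35931 CPM, were the highest of the 6, but that sum includes Mmp9, so the 2 values are not separate observations. Whether the makeup of that library bears on its interferon-stimulated genes was not tested.

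**Figure D4:**
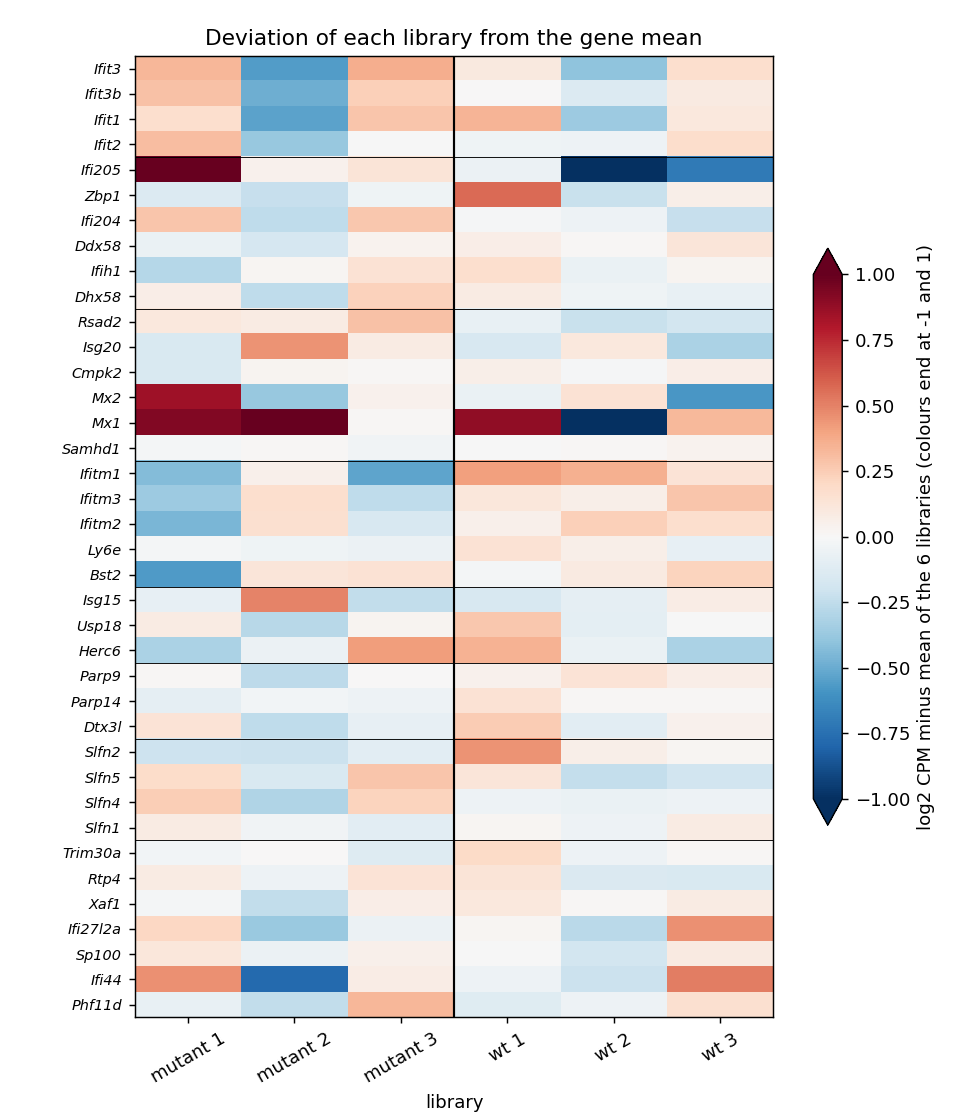
Log2 CPM of each gene in each library minus its mean over the 6 libraries, with red above and blue below the mean and colours ending at -1 and 1. Mutant replicate 2 is blue for all 4 IFIT genes and many others, while the IFITM genes are blue in mutant replicates 1 and 3.

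The signalling chain above these genes was read from 110 further genes of the interferon pathway, of which 88 passed the filter on low counts. The 21 ligand genes listed did not pass it. Ifnb1 was at 0.339 CPM in mutant replicate 2, from 10 counts, and at 0 counts in the other 5 libraries, which allows up to 0.0829 to 0.0991 CPM in each. Of the 88, 0 passed an adjusted p of 0.05 by edgeR. At an unadjusted p under 0.05 by edgeR, 2 were higher and 10 lower in mutants (3.51% and 3.22% of all tested genes). At an adjusted p under 0.05 DESeq2 called Irf5 higher and Irf1 lower (0.514% and 0.469% of all tested genes were higher and lower). The median log2 fold change of the 88 genes was -0.08, with 54 of 88 negative. The mutant libraries lay entirely above wt for 3 of the 88 and entirely below for 11 (6.82% and 6.21% of all tested genes).

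The receptor subunit Ifnar1 was at 278, 250 and 329 CPM in mutants and at 283, 281 and 282 CPM in wt, and Ifnar2 at 102.9, 96.5 and 87.2 CPM and at 77.6, 83.7 and 84.7 CPM. Ifnar1 overlapped between the groups, while for Ifnar2 all mutants lay above all wt libraries (log2 fold change 0.22 ± 0.12, SE, adjusted p = 0.799 by edgeR). The kinase Tyk2 was at 32.6, 41.9 and 32.8 CPM in mutants and at 40.0, 42.1 and 69.4 CPM in wt, with wt replicate 3 well above the rest.

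Of the 10 STAT and IRF factors, 8 had negative log2 fold changes. Stat2 (73.7, 68.4 and 72.7 CPM in mutants, 109, 64.7 and 85.9 CPM in wt) and its partner Irf9 (202, 228 and 234 CPM in mutants, 283, 211 and 256 CPM in wt) overlapped between the groups, as did Irf7, the factor that amplifies interferon production, at 621, 482 and 719 CPM in mutants and 565, 510 and 559 CPM in wt. No factor passed by edgeR. Irf1, which is induced by interferon-gamma and by inflammatory signals, was at 324, 337 and 301 CPM in mutants and at 890, 448 and 613 CPM in wt, and Irf5, a mediator of Toll-like receptor signals, at 164, 185 and 182 CPM and at 136, 131 and 124 CPM, in both cases without overlap. Wt replicate 1 was the highest library for Stat2, Irf9 and Irf1, as it was for 11 of the 38 genes.

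Feedback inhibitors and upstream adaptors did not pass either. Socs3, an inhibitor of cytokine receptor signalling, was at 709, 758 and 600 CPM in mutants and at 904, 786 and 1124 CPM in wt (adjusted p = 0.498 by edgeR). The phosphatase Ptpn2 was at 49.0, 47.4 and 49.0 CPM in mutants and at 48.2, 40.4 and 32.8 CPM in wt. Mavs, the mitochondrial adaptor of RIG-I and MDA5, was at 9.84, 12.5 and 10.8 CPM in mutants and 14.8, 15.8 and 13.9 CPM in wt, and the Toll-like receptor adaptor Myd88 at 358.4, 391.9 and 358.0 CPM and at 391.8, 380.2 and 446.6 CPM. Among 54 further induced genes the log2 fold change was above 0 for 22 and below 0 for 32 (median -0.07). At an unadjusted p under 0.05 by edgeR, 1 of them was higher and 5 were lower (3.51% and 3.22% of all tested genes). Sp140 was at 83.2, 94.1 and 104 CPM in mutants and 66.1, 68.6 and 72.7 CPM in wt, and the RNA helicase Mov10 at 75.2, 81.0 and 63.3 CPM and at 104, 89.8 and 92.1 CPM (adjusted p = 0.428 and 0.563, edgeR).

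**Figure D5:**
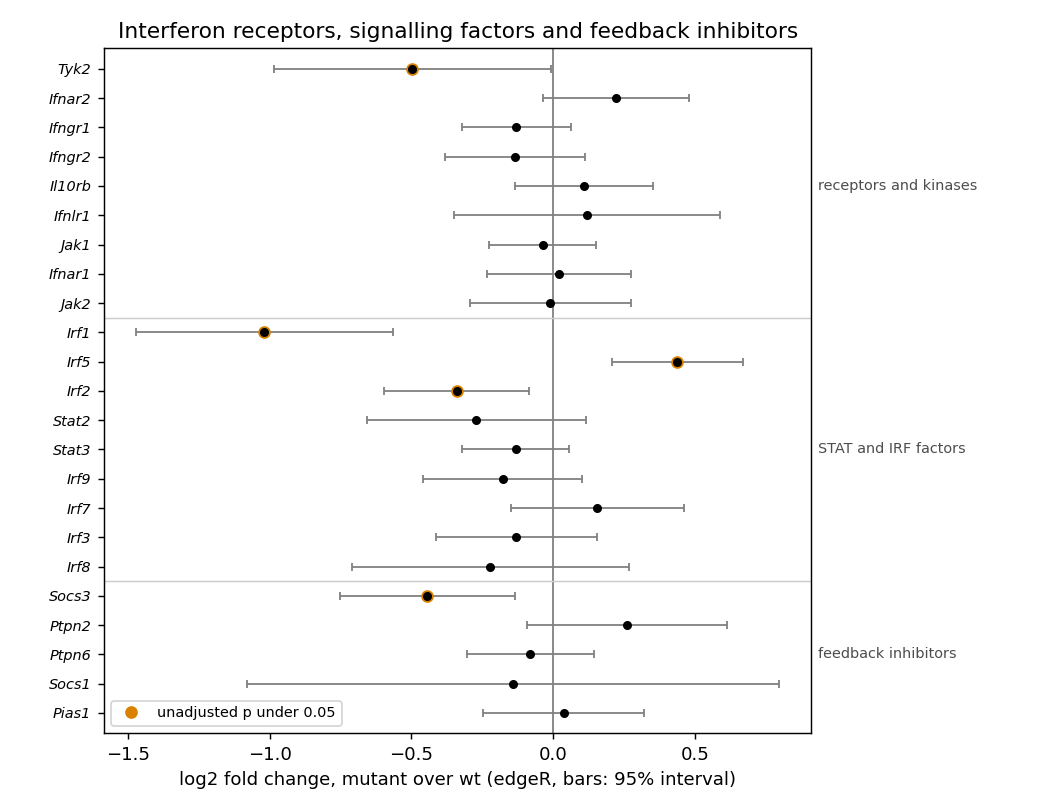
Log2 fold change of mutant over wt for interferon receptors and kinases, STAT and IRF factors and feedback inhibitors (edgeR), with bars for the 95% interval and orange rings for genes with an unadjusted p under 0.05. Irf1 lies farthest from 0, and the receptor subunits Ifnar1 and Ifnar2 have intervals that include 0.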

How the data were processed

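The authors deposited 1 table of raw read counts per gene, summed over all exons. STAR, featureCounts and the build GRCm38 are named in the submitters' processing notes, and neither versions nor the settings for strand and read pairs could be read from them. Following the labels' protocols, libraries were made by SMART-Seq v2 from 2 ng of RNA and sequenced as paired ends of 151 cycles. In each library 62.6% to 64.0% of the nonzero counts were even, and counts of 2 (1165 to 1263 genes) outnumbered counts of 1 (405 to 464), so a fragment may often have been counted by both of its ends, and intervals from counting would then be too narrow.

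Symbols came from GENCODE M21 (55094 identifiers matched exactly, 300 without version, 93 without symbol). Genes were kept by edgeR's filterByExpr (minimum count 10), scaled by TMM (factors 0.972 to 1.03) and compared with the quasi-likelihood F-test of edgeR 4.0.16 under R 4.3.3 over all 6 libraries, unpaired, with Benjamini-Hochberg adjustment over 15774 genes. Library deviations use log2 CPM with a prior count of 2. DESeq2 1.42.0 and limma 3.58.1 served as alternatives. The design states 3 mice per group, but labels do not tie libraries to mice, so the p-values reflect only how these libraries vary, which may be technical. Replicate numbers follow accession order.

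The members, role groups, pathway list and markers were chosen with earlier results of these data known. Per-library values are given for the most abundant gene per kilobase and the 2 smallest p in each role group, for every gene with an unadjusted p under 0.05 or called by any tool, and for the 2 smallest p among genes of at least 1 CPM in each pathway list, plus Ifnb1, Ifnar1, Ifnar2, Stat2, Irf7 and Irf9. The values of 1 gene of the pathway list are not reported here, though counts and medians over the list include it. The other genes printed by library (Ifit1, Ifit2, Ddx58, Cmpk2, Ly6e, Bst2, S100a8, S100a9) were chosen after their values were seen. Promoters are RefSeq's (GRCm38.p6). Left out was an analysis of reads over single exons.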

Additional observations from a re-analysis of the deposited data

How the results depend on the processing

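Under 14 alternatives (2 other scalings, 2 other filters, 4 other tests and leaving out each of the 6 libraries) the number of the 38 genes called higher stayed at 0 and the number called lower was 0, except 1 with DESeq2. The median of the 38 genes stayed between -0.08 and -0.01 and the number of positive genes between 12 and 18. Over all tested genes the calls were 1 higher and 0 lower, 41 and 29 with no filter on low counts, 14 and 4 when genes averaging below 10 CPM were dropped and 81 and 74 with DESeq2. Leaving out each library gave 0 to 1 higher and 0 to 1 lower, and the causes were not tested. Of the other pathway genes DESeq2 called 1 higher and 1 lower, and 1 was lower with no filter and 1 after dropping genes averaging below 10 CPM. Their median ran from -0.094 to 0.017 when each library was left out. With the longer ISRE motif 5 promoters matched in place of 10.

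Leaving out 1 library changed the sign of 17 log2 fold changes. They ranged from -0.031 to 0.37 for Ifit3, from -0.064 to 0.28 for Ifit3b, from -0.22 to 0.16 for Ifit1, from -0.21 to 0.13 for Ifit2, from -0.17 to 0.039 for Ifih1, from -0.072 to 0.16 for Dhx58, from -0.014 to 0.66 for Mx2, from -0.28 to 0.034 for Bst2, from -0.11 to 0.29 for Isg15, from -0.19 to 0.0032 for Usp18, from -0.20 to 0.23 for Herc6, from -0.086 to 0.0056 for Slfn1, from -0.31 to 0.062 for Ifi27l2a, from -0.0083 to 0.13 for Sp100, from -0.41 to 0.16 for Ifi44, from -0.16 to 0.14 for Phf11d and from -0.094 to 0.10 for Ifnar1. No paired analysis was possible because the labels carry no replicate numbers. The filter at 10 CPM left 34 of the 38 genes. Depth limits Mx1, Mx2 and Ifi205, whose intervals are the widest.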

Other observations

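The IFITM and Schlafen families have members outside the 38 genes, and their values were read after the others had been seen. Ifitm6, a myeloid member of the IFITM cluster, was at 19.8, 27.9 and 17.5 CPM in mutants and at 24.37, 24.998 and 22.41 CPM in wt, so that mutant replicates 1 and 3 were the lowest libraries, as for Ifitm1, Ifitm2 and Ifitm3, while mutant replicate 2 was the highest. Its log2 fold change was -0.14 with a 95% interval of -0.59 to 0.31 by edgeR. Ifitm5 was at 5.83 to 8.74 CPM in mutants and 6.21 to 9.88 CPM in wt, Ifitm10 at 2.96 to 5.94 and 2.34 to 6.08 CPM, and Ifitm7 had 0 counts in every library.

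Slfn8 was at 129, 97.3 and 139 CPM in mutants and at 111, 96.6 and 94.9 CPM in wt, a log2 fold change of 0.27 with a 95% interval of -0.05 to 0.60. Slfn4, Slfn5 and Slfn8 share this order, with mutant replicates 1 and 3 above mutant replicate 2. Slfn3 was at 9.05 to 13.5 CPM in mutants and 7.78 to 11.6 CPM in wt, and Slfn9 at 4.04 to 7.18 and 1.08 to 6.78 CPM.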
